A study of Mus musculus with 4 samples.

Results

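Insulin-like growth factors (IGFs) are secreted growth factors, and the 10 genes described here encode the ligands Igf1 and Igf2, the receptors Igf1r and Igf2r, and the binding proteins Igfbp2, Igfbp3, Igfbp4, Igfbp5, Igfbp6 and Igfbp7. The rule that picks them uses gene names and no measured value, but the choice was made with earlier results of these data known. Of these 10 genes, 9 had a row among the 16051 genes of the deposited table. Igfbp2 had none, and only its promoter entries were examined. A mean of at least 1 FPKM (fragments scaled to the length of the transcript and to the mapped total of the library, a level per length) over all libraries was required for testing, which 5 of the 9 genes reached: Igf1r, Igf2r, Igfbp4, Igfbp6 and Igfbp7. Igf1, Igf2, Igfbp3 and Igfbp5 were under that limit.

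IGF1 and IGF2 act through the IGF1 receptor, a tyrosine kinase close to the insulin receptor, and IGF signalling together with insulin drives 3T3-L1 cells into adipogenesis. The IGF2 receptor does not signal in the same way: it takes up IGF2 for degradation and, as the cation-independent mannose 6-phosphate receptor, carries lysosomal enzymes to their compartment. IGF binding proteins hold the ligands outside the cell and decide how much reaches the receptor, and proteases such as pregnancy-associated plasma protein A, which cuts IGFBP4, release them again.

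The cells were 3T3-L1, a mouse embryonic fibroblast line that can form adipocytes, labelled as strain NIH SWISS. Both treatments shared the same differentiation, which used insulin, dexamethasone and isobutylmethylxanthine, and then received either the vehicle DMSO (the labels call these cells untreated) or 100 µM risperidone, an antipsychotic drug that blocks dopamine and serotonin receptors, for 48 h. Each treatment had 2 libraries of mRNA, with the RNA of 3 cultures of this single line combined in each, so that p-values measure the spread between these libraries and not between single cultures. The labels also name embryo tissue and an extraction from retina.

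The libraries held 15883712 to 16374119 estimated counts each, on 13810 to 14657 genes. The defining markers of mature adipocytes were near 0 in all libraries: Adipoq, the adiponectin gene, had 0 or 1 count per library, and 6 to 8 of the 12 adipocyte markers had at most 3 counts. Fabp4, a fatty acid binding protein of adipocytes, had 1079 and 1360 counts with DMSO and 492 and 586 with risperidone. The 12 adipocyte markers summed to 1028 and 1108 CPM (counts scaled to a common library total) with DMSO and 815 and 818 with risperidone, most of it from Lpl, the lipoprotein lipase gene, at 916 and 980 CPM with DMSO and 752 and 749 with risperidone. Of the 4 adipocyte markers tested, Fabp4, Lpl and Lipe were lower, and Pparg, the master regulator of adipogenesis, was not called (log2 fold change 0.12, edgeR adjusted p = 0.194). The 11 markers of preadipocytes and fibroblasts summed to 14250 to 15279 CPM in all libraries, but of the 10 tested, 4 were higher (Dlk1 2.86-fold, Ly6a 2.30-fold, Thy1 2.08-fold and Col1a1 1.98-fold) and 3 lower (Col3a1 1.94-fold, Pdgfrb 1.42-fold and Col1a2 1.11-fold). The call of Ly6a was lost without risperidone replicate 2 (1.44-fold, edgeR adjusted p = 0.182), and that of Col1a2 without DMSO replicate 1 (1.09-fold lower, adjusted p = 0.216) or 2 (1.14-fold lower, adjusted p = 0.0612). Because these are bulk libraries, fewer cells of a type and less RNA per cell cannot be told apart. Risperidone replicate 2 stood apart: 99 genes had at least 30 counts in it and at most 3 in each other library, no gene had that pattern in any other library, and 12 kidney markers summed to 206 CPM in it against 4.19 to 6.17 CPM in the others. Liver markers summed to 17.9 CPM in it against 0.0615 to 0.395 CPM, of which Cyp2e1 alone gave 14.8 CPM. Of the 8 liver markers with a row, 3 had at most 3 counts there (Fgb 1, Apoa1 and Apoa2 0), and the others were Serpina1a with 28.67 counts, Ttr with 8, Fga with 7, Alb with 5 and Cyp2e1 with 237. Retina markers summed to 3.25 to 3.97 CPM in all 4 libraries.

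Between the treatments the binding protein transcripts Igfbp4 and Igfbp6 moved in opposite directions, while the receptors and Igfbp7 did not pass the test. Igfbp4 was 2.27-fold lower and Igfbp6 3.53-fold higher with risperidone. Of the 5 genes tested, 1 was called higher, 1 lower and 3 neither at an adjusted p of 0.05 (edgeR's quasi-likelihood test, Benjamini-Hochberg over all 10243 genes tested). The treatment moved much of the transcriptome: 64.3% of all genes tested were called, 32.1% higher and 32.2% lower, so that 40% of the IGF genes tested is no larger a share than among all genes. With a change of at least 1 on the log2 scale added to the rule, 2.61% of all genes were called higher and 3.91% lower, and Igfbp6 and Igfbp4 were among them. Igfbp6 passed the level limit only through the risperidone libraries, so its place among the genes called higher is not independent of that limit. The size of the Igfbp4 change ranked 247 among the 3303 genes called lower. The median log2 fold change was 0.04 over the 5 IGF genes and 0.00044 over all genes tested.

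The transcripts spanned a wide range of levels. With DMSO, Igfbp7 was highest with a mean of 400.3 ± 13.2 FPKM (SD, n = 2), followed by Igf2r at 86.1 ± 5.44, Igfbp4 at 30.8 ± 3.11, Igf1r at 6.06 ± 0.424 and Igfbp6 at 0.890 ± 0.354 FPKM. Igf1 at 0.125 FPKM, Igf2 at 0.0800, Igfbp5 at 0.0200 and Igfbp3 at 0 followed, and no neighbours in this order had overlapping ranges. With risperidone the first 5 kept their order, with means of 384 ± 16.6 FPKM (SD, n = 2) for Igfbp7, 82.4 ± 3.91 for Igf2r, 12.7 ± 2.40 for Igfbp4, 6.34 ± 0.226 for Igf1r and 2.94 ± 0.198 for Igfbp6. Below them stood Igfbp3 at 0.525, Igfbp5 at 0.330, Igf1 at 0.110 and Igf2 at 0.0650 FPKM, where 2 neighbour pairs, Igfbp3 with Igfbp5 and Igfbp5 with Igf1, overlapped. Igfbp3 and Igfbp5 were at 0 FPKM in risperidone replicate 1, so their means come from replicate 2 alone.

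**Figure D1:**
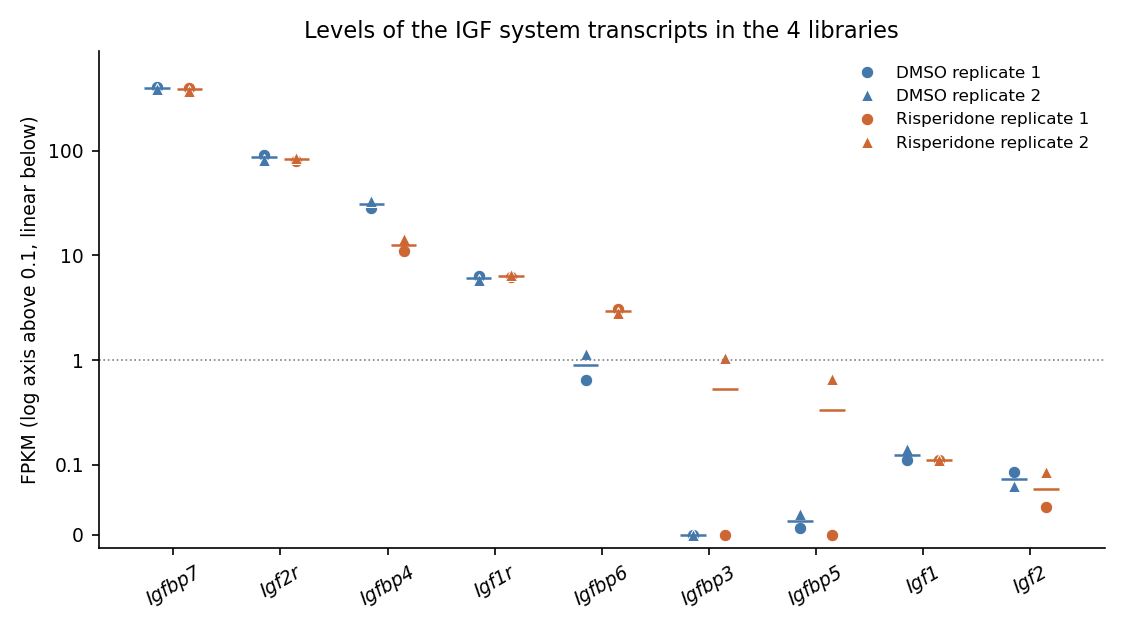
FPKM of the 9 IGF genes with a row (vertical axis, logarithmic above 0.1 and linear below) in each library, with DMSO in blue, risperidone in orange, circles for replicate 1, triangles for replicate 2 and bars for the mean of 2. The Igfbp4 points fell from 28.58 and 32.98 to 10.98 and 14.37 FPKM and the Igfbp6 points rose from 0.640 and 1.14 to 2.80 and 3.08 FPKM, while Igfbp3 and Igfbp5 had high values in 1 risperidone library only.

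Both ligand transcripts were at the edge of detection. Igf1 (NCBI Gene 16000, GRCm38.p6 chr10:87858265-87937047, plus strand) had 13 and 15 counts with DMSO and 12 and 12 with risperidone, or 0.110 and 0.140 against 0.110 and 0.110 FPKM. Igf2 (NCBI Gene 16002, chr7:142650768-142666816, minus strand), the growth factor of fetal tissues, had 5 and 4 counts with DMSO and 2 and 5 with risperidone, or 0.0900 and 0.0700 against 0.0400 and 0.0900 FPKM. Both DMSO libraries had 1 to 3 counts more of Igf1 than the risperidone libraries, and for Igf2 the treatments overlapped. Summed over the 2 libraries of a treatment, Igf1 had 28 counts (95% exact Poisson interval 18.6 to 40.5) and 24 (15.4 to 35.7), and Igf2 had 9 (4.12 to 17.1) and 7 (2.81 to 14.4), intervals that cover counting error only. With no limit on the level, edgeR's quasi-likelihood test gave Igf1 a log2 fold change of -0.13 (95% interval -1.17 to 0.91, Benjamini-Hochberg adjusted p = 0.828) and Igf2 one of -0.26 (-2.30 to 1.78, adjusted p = 0.824), where 37.5% of the 16051 genes were called. No difference in ligand transcripts was detectable at this depth, and intervals this wide leave changes of over 2-fold possible.

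Neither receptor passed the test. Igf1r (NCBI Gene 16001, chr7:67952257-68233668, plus strand) was at 6.36 and 5.76 FPKM with DMSO and at 6.18 and 6.50 with risperidone, from 1199, 1058, 1138 and 1171 counts, and the treatments overlapped. Its log2 fold change was 0.13 ± 0.0671 (SE, 95% interval -0.02 to 0.28), with an adjusted p of 0.117 in edgeR's quasi-likelihood test. Igf2r (NCBI Gene 16004, chr17:12682406-12769706, minus strand), a maternally expressed imprinted gene in mice, was at 89.98 and 82.29 FPKM with DMSO and at 79.62 and 85.15 with risperidone, again with overlap. Its log2 fold change was 0.03 ± 0.0575 (SE, 95% interval -0.10 to 0.16; edgeR adjusted p = 0.668).

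The calls of both receptors depended on how gene length entered the fit. In these libraries the median log2 fold change went from 0.12 in the shortest 2049 genes (median length 1015 bases) to -0.12 in the longest 2049 (5907 bases), and both receptor transcripts are long, at 11414 bases for Igf1r and 8797 for Igf2r as implied by count over FPKM. With offsets that removed this trend, edgeR's quasi-likelihood test called both higher, Igf1r by 0.30 (adjusted p = 0.000729) and Igf2r by 0.17 (adjusted p = 0.00271) on the log2 scale, where 33.4% of all genes were called higher. On the deposited TPM values, which sum to the same total in each library, Igf2r had a log2 difference of -0.21 in limma (adjusted p = 0.0221), on a scale whose median over all genes was -0.22 and on which 1536 genes were called higher and 5292, or 51.7%, lower. The proportion between the receptors moved little: the FPKM of Igf2r was 14.1 and 14.3 times that of Igf1r with DMSO and 12.9 and 13.1 times with risperidone, ranges that did not overlap. The insulin receptor gene Insr, which is not among the 10 and was added after its values were seen, was at 3.33 and 3.53 times the FPKM of Igf1r with DMSO and at 3.07 and 3.08 times with risperidone, and its log2 fold change was 0.01 (edgeR adjusted p = 0.906).

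Igfbp4 fell with risperidone. It encodes a binding protein that mostly restrains IGF action and that is inactivated by cleavage. Igfbp4 (NCBI Gene 16010, chr11:99040005-99052655, plus strand) was at 28.58 and 32.98 FPKM (905 and 1014 counts) with DMSO and at 10.98 and 14.37 FPKM (346 and 446 counts) with risperidone. Both risperidone libraries were below both DMSO libraries. The log2 fold change was -1.18 ± 0.105 (SE, 95% interval -1.42 to -0.95), with an adjusted p of 3.42e-06 in edgeR's quasi-likelihood test. It was -1.38 without risperidone replicate 2, the library with kidney transcripts, and its direction and call held in all 16 other settings, from -1.39 to -1.01 with an adjusted p of at most 0.00187. The adipocyte and fibroblast markers given above also differed between the treatments, and their part in the changes of Igfbp4 and Igfbp6 was not tested.

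Igfbp6 rose with risperidone, from a low level. Its protein prefers IGF2 over IGF1 as a ligand and restrains IGF2 action. Igfbp6 (NCBI Gene 16012, chr15:102144186-102149512, plus strand) was at 0.640 and 1.14 FPKM (12 and 21 counts) with DMSO and at 3.08 and 2.80 FPKM (58 and 52 counts) with risperidone, with no overlap. The log2 fold change was 1.82 ± 0.305 (SE, 95% interval 1.15 to 2.49; edgeR adjusted p = 0.000344). The counts summed to 33 with DMSO (95% exact Poisson interval 22.7 to 46.3) and 110 with risperidone (90.4 to 133). Its DMSO mean was under the 1 FPKM limit, so the gene was tested only because it was high with risperidone. Without that limit the fold change was 1.82 with an adjusted p of 0.00959 in edgeR's quasi-likelihood test, and without risperidone replicate 2 it was 1.89. Over the 15 other settings that kept the gene it lay between 1.07 and 2.30 and was called in each, with an adjusted p of at most 0.0306. The lowest value was on the log2(FPKM + 1) scale, which understates the change of low genes.

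The 250 bases before the RefSeq starts of the called genes are shown because these genes moved in opposite directions and their promoters can be compared letter by letter. The Igfbp4 window lies at chr11:99040994-99041243 and the Igfbp6 window at chr15:102143936-102144185, both in GRCm38.p6 and on the plus strand, written 5′ to 3′ with a TATAAA match on either strand in capitals. The RefSeq span of Igfbp4 begins upstream of its window, which ends at the start given in the promoter table.
Igfbp4: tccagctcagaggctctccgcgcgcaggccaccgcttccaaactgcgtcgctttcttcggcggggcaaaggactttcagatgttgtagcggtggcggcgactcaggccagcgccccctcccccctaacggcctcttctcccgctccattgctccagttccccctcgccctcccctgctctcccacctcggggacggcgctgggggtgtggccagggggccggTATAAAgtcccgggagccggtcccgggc
Igfbp6: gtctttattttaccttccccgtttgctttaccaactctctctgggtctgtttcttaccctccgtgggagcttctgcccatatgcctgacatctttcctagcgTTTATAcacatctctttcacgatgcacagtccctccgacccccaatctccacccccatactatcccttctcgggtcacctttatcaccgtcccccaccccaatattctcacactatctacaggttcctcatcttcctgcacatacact
The Igfbp4 window had a GC content of 69.2% with 22 CpG sites, against a median of 52.4% over all 32851 promoter entries, and its TATAAA began 28 bases before the start. The Igfbp6 window had a GC content of 49.6% with 7 CpG sites, and its match was on the opposite strand, 148 bases before the start. All 10 IGF genes had a promoter entry, and TATAAA was found in 12.4% of all entries on either strand and, among the IGF genes, in Igfbp4 and Igfbp6 alone. GGGCGG, the GC box, was in 32.7% of all entries and, among the genes tested, in the windows of Igf1r (2 matches), Igf2r (3) and Igfbp7 (4), and not in those of Igfbp4 and Igfbp6. Of the IGF genes not tested, Igf2 and Igfbp2 also had it, and Igf1, Igfbp3 and Igfbp5 did not. Neither window held TGACGTCA (1.55% of entries), TGANTCA (6.75%), GTAAACA (3.17%) or TTGCNNAA (9.56%), each searched on both strands. A match describes the letters of a window and is not a measured binding site.

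Igfbp7 was the most abundant of these transcripts in every library. Its protein, also called angiomodulin, binds IGFs only weakly. Igfbp7 (NCBI Gene 29817, chr5:77349240-77408045, minus strand) was at 409.66 and 390.97 FPKM with DMSO and at 396.08 and 372.67 FPKM with risperidone, from 5918 to 6608 counts. The treatments overlapped. Its log2 fold change was 0.04 ± 0.0518 (SE, 95% interval -0.07 to 0.16; edgeR adjusted p = 0.502). In limma on the TPM values it was -0.20 (adjusted p = 0.00488), near the median of all genes on that scale.

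**Figure D2:**
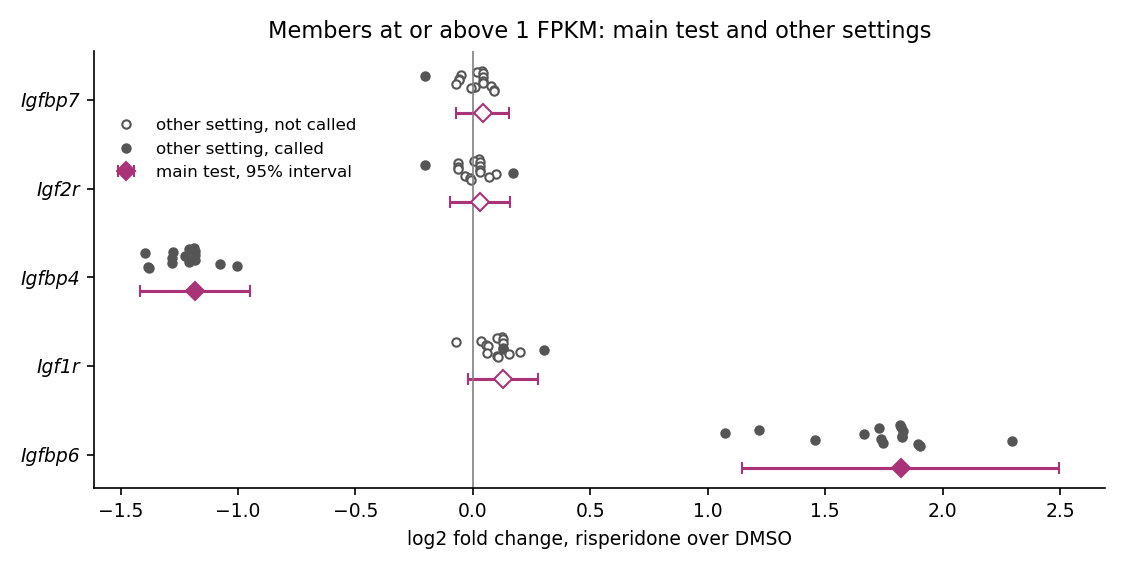
Log2 fold change of risperidone over DMSO (horizontal axis) for the 5 IGF genes tested, with diamonds for edgeR's estimate, bars for its 95% interval and circles for the other settings, filled where the adjusted p was under 0.05. All settings of Igfbp4 lay between -1.39 and -1.01 and all of Igfbp6 between 1.07 and 2.30, whereas Igf1r, Igf2r and Igfbp7 had estimates on both sides of 0.

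Igfbp3 and Igfbp5 were found almost entirely in risperidone replicate 2. IGFBP3 is the main IGF carrier of blood, and IGFBP5 also binds to the extracellular matrix. Igfbp3 (NCBI Gene 16009, chr11:7206086-7215498, minus strand) had 0 counts in both DMSO libraries and in risperidone replicate 1 and 39 counts, or 1.05 FPKM, in risperidone replicate 2. Igfbp5 (NCBI Gene 16011, chr1:72858065-72874865, minus strand) had 1 and 3 counts with DMSO and 0 and 60 with risperidone, the last being 0.660 FPKM. A count of 0 allows up to 3 counts, or 0.183 to 0.189 CPM. The high values were thus in 1 of the 2 risperidone libraries, and the other had 0 counts of both genes. With no limit on the level neither gene was called by edgeR's quasi-likelihood test (adjusted p = 0.141 for Igfbp3 and 0.180 for Igfbp5). The same library had the high kidney marker sum given above, with 1 of the 12 kidney markers at 3 counts or fewer against 7 to 9 in the other libraries. The part of such transcripts in the counts of Igfbp3 and Igfbp5 was not tested.

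**Figure D3:**
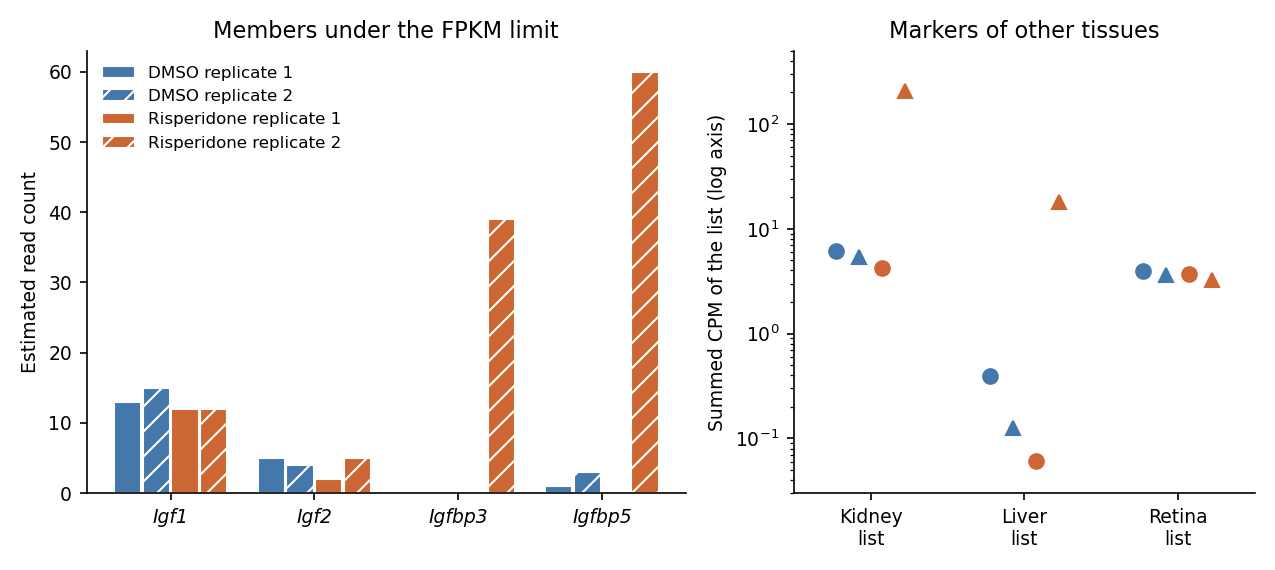
Left, estimated read counts of the 4 IGF genes under 1 FPKM as bars for each library. Right, CPM summed over marker lists of kidney, liver and retina on a log axis, in the same colours with circles for replicate 1 and triangles for replicate 2. Igfbp3 (39 counts) and Igfbp5 (60 counts) stood out only in risperidone replicate 2, the library in which the kidney markers reached 206 CPM, while Igf1 and Igf2 stayed at 15 counts or fewer in all libraries.

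The make-up of the binding protein transcripts differed between the treatments in the same directions for Igfbp4 and Igfbp6. Over the 5 binding proteins with a row, FPKM summed to 439 and 425 with DMSO and 410.1 and 392 with risperidone. Igfbp7 made up 93.3% and 92.0% of the sum with DMSO and 96.6% and 95.2% with risperidone. Igfbp4 made up 6.51% and 7.76% with DMSO and 2.68% and 3.67% with risperidone, a mean difference of -3.96 percentage points. Igfbp6 rose from 0.146% and 0.268% to 0.751% and 0.715%, or by 0.526 points. The treatments did not overlap for these 3 genes, and the exact permutation test gave each a two-sided p of 0.333, the smallest that 2 libraries against 2 allow. Shares of a sum are tied, so a fall in the share of Igfbp4 raises that of Igfbp7. The FPKM of Igfbp7 itself overlapped between the treatments and was not called. Without Igfbp7, the remaining 4 binding proteins summed to 29.2 and 34.2 FPKM with DMSO and 14.1 and 18.9 FPKM with risperidone, and the FPKM of Igfbp4 was 44.7 and 28.9 times that of Igfbp6 with DMSO but 3.56 and 5.13 times with risperidone.

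Other genes of the IGF axis were described in 6 lists by role, from which genes among the 4 largest called changes are named for each. Of 116 symbols written, 98 had a row and 81 were tested, of which 27 were called higher, 27 lower and 27 neither, or 66.7% called against 64.3% of all genes. Their median log2 fold change was 0.0096. Over all genes tested 32.1% were higher and 32.2% lower, the shares against which the counts of each list below are to be read.

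Among proteases, inhibitors and surface molecules that govern access to IGFs, 10 of 20 symbols were tested, 4 were higher and 3 lower, with a median log2 fold change of 0.10. Stc1, which encodes an inhibitor of pregnancy-associated plasma protein A, had 225 and 251 counts with DMSO and 62 and 60 with risperidone, a log2 fold change of -1.87 ± 0.152 (SE; edgeR adjusted p = 1.76e-06). Htra1, a secreted serine protease that can cut binding proteins, went the other way, from 21 and 12 to 59 and 50 counts (1.81 ± 0.302; edgeR adjusted p = 0.000334). Its mean was 0.535 FPKM with DMSO and 1.77 with risperidone, so it was tested only because it was high with risperidone, and with no limit on the level its edgeR adjusted p was 0.00902. The 4 higher and the median of this list include Htra1. Its relative Htra3 fell by 1.09 and the matrix protease Adamts1 rose by 0.55 on the log2 scale. Pappa itself, the gene of the protease that cuts IGFBP4, was under the limit with 23 and 14 counts with DMSO and 8 and 7 with risperidone, and was added after its values were seen.

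In receptor signalling, 31 of 35 symbols were tested, 5 were higher and 13 lower, with a median log2 fold change of -0.12. Irs2, an adaptor of the insulin and IGF1 receptors, went from 379 and 322 counts to 834 and 792 (1.31 ± 0.0709; edgeR adjusted p = 1.23e-07). Grb14, an adaptor that inhibits the insulin receptor, went from 137 and 114 counts to 336 and 301 (1.44 ± 0.129; edgeR adjusted p = 3.54e-06). The scaffold gene Rack1 rose by 0.91 on the log2 scale. In shares of the genes tested, 16.1% of this list was higher and 41.9% lower, against 32.1% and 32.2% of all genes. The longest 2049 genes had a like median of -0.12, and the part of gene length in these counts was not tested.

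Of the genes that bind Igf2 mRNA or belong to the imprinted gene network, 12 of 22 symbols were tested, 4 were higher and 5 lower, with a median log2 fold change of 0.11. Dlk1, an imprinted gene whose protein restrains adipogenesis and which is also in the preadipocyte marker list, went from 873 and 923 to 2406 and 2408 counts (1.52 ± 0.0544; edgeR adjusted p = 1.11e-08). Hmga1, a chromatin protein gene, rose by 0.64 on the log2 scale, and the imprinted genes Ndn and Peg3 fell by 0.66 and 0.53.

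In the growth hormone axis, which drives Igf1 transcription in liver and other tissues, 5 of 6 symbols were tested, none was higher and 3 were lower, with a median log2 fold change of -0.47. The growth hormone receptor gene Ghr went from 3376 and 3328 to 2233 and 2305 counts (-0.47 ± 0.0462; edgeR adjusted p = 7.34e-06), and the transcription factor genes Stat5a and Stat5b each fell by 0.48. Stat5a and Stat5b are close copies with fractional counts, so reads between them are uncertain. The median of this list is the value of Ghr. The FPKM of Ghr fell less than its counts, from 68.05 and 69.7 to 56.75 and 58.72. Its implied length with risperidone was 80.8% of the DMSO mean, as described further below.

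Igf2r shares its sorting role with a further list, in which all 17 symbols were tested, 10 were higher and 2 lower (58.8% and 11.8%, against 32.1% and 32.2% of all genes), with a median log2 fold change of 0.16. The sorting adaptor gene Gga1 rose by 0.46 and the lysosomal protease gene Ctsb by 0.42 on the log2 scale, and the retromer gene Vps26a fell by 0.55. The last list holds genes whose proteins carry an IGFBP domain, of which 8 of 16 symbols had a row, the list having been written with both older and newer symbols of some genes. Of these 8, Esm1 and Nov were under the limit and 6 were tested, 4 of them higher and 1 lower, with a median log2 fold change of 1.02. Cyr61, a matricellular gene, went from 549 and 528 to 2380 and 2133 counts (2.16 ± 0.0673; edgeR adjusted p = 5.12e-09), and Crim1 rose by 1.35 and Wisp1 fell by 0.57, a call that was lost without DMSO replicate 1 (-0.33, edgeR adjusted p = 0.188). Ctgf went from 22 and 19 to 66 and 69 counts (1.81 ± 0.244; edgeR adjusted p = 7.16e-05). It too passed the limit only through the risperidone libraries, with means of 0.560 and 1.85 FPKM, and with no limit its edgeR adjusted p was 0.00208. The 4 higher and the median of 1.02 include Ctgf.

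**Figure D4:**
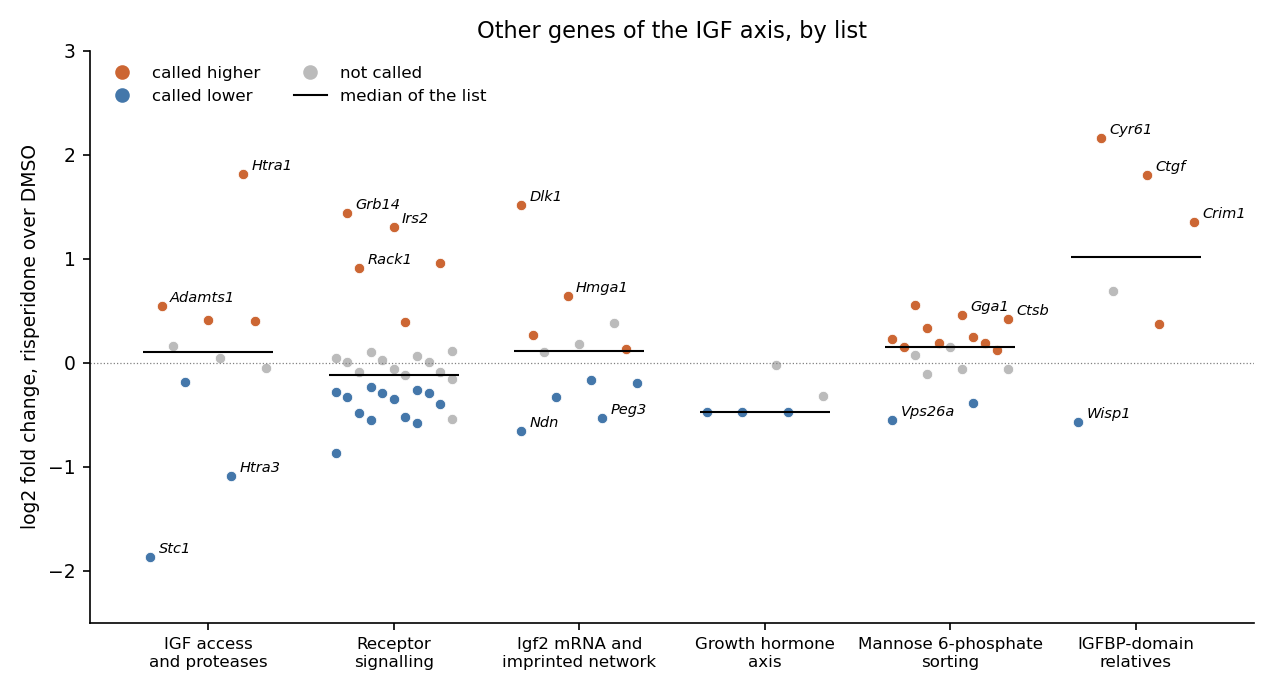
Log2 fold change of risperidone over DMSO (vertical axis) for the 81 tested genes of the 6 lists of the IGF axis (horizontal axis), coloured by call, with a bar for each list's median and names for the genes given in the text except in the growth hormone list. The medians ran from -0.47 in the growth hormone axis to 1.02 in the IGFBP-domain relatives, and Stc1 (-1.87) and Cyr61 (2.16) were at the ends of the range. The first of these medians is the value of Ghr. The last includes Ctgf, which passed the limit only through the risperidone libraries.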

How the data were processed

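mRNA of DMSO- and risperidone-treated 3T3-L1 cells was sequenced by the authors on MGISEQ-2000. The submitters' processing notes name Bowtie2, RSEM, DESeq2 and GRCm38.p6, without versions. The table holds estimated counts (expected counts), deposited by the authors without normalization and whole for 91.2% to 91.7% of values, FPKM that the authors computed, and TPM as deposited. The authors' averaged columns were not used.

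Counts were rounded. The genes whose mean reached 1 FPKM entered edgeR 4.0.16 under R 4.3.3 (TMM factors 0.963 to 1.03, glmQLFit and glmQLFTest, treatment only, two-sided, Benjamini-Hochberg over 10243 genes, threshold 0.05); the biological coefficient of variation was 0.0468. DESeq2 1.42.0 and limma 3.58.1 (log2 of the value plus 1 or 0.1) were alternatives, beside other filters, scalings, a gene length offset (loess span 0.4), a replicate block and leaving out each library. On simulated counts with 200 genes changed by 1 on the log2 scale, edgeR recovered 98.5% with 2 false calls among 10243 genes. The simulation gave all genes the same relative spread and had no trend with gene length. Its false calls are not the error rate of these data, where 64.3% of genes were called. Intervals are 95%; the Poisson intervals and the floor of 3 counts cover counting error only. Groups follow the treatment labels, and the paper's DMSO was taken for the label's untreated cells.

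Named were all 10 genes, the up to 4 largest called changes of each list, the 3 nearest profiles of Igfbp4 and Igfbp6 (Euclidean distance of mean-centred log2 CPM), and markers; a few items this rule selects are not reported here. The members and lists were chosen with earlier results of these data known. Gene positions and promoters are from RefSeq (GRCm38.p6).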

Additional observations from a re-analysis of the deposited data

How the results depend on the processing

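Igfbp4 and Igfbp6 kept their direction and call in every setting that tested them. A mean of at least 5 FPKM removed Igfbp6 from the test and left 0 IGF genes higher by edgeR (Igfbp4 still lower). The other estimates crossed 0. Igf1r was -0.072 in limma on TPM, and was called at 0.30 with gene length offsets. Igf2r was -0.0634 with library size only, -0.0629 and -0.0635 in limma on FPKM with a pseudocount of 1 and 0.1, -0.21 on TPM, 0.17 with length offsets, and -0.0080 in DESeq2 without risperidone replicate 2, a setting added after the data were seen. Igfbp7 was -0.0523 with library size only, -0.0587 and -0.0589 in limma on FPKM, -0.20 on TPM and -0.0699 with length offsets. Leaving out 1 library gave Igf2r -0.0357 to 0.0982, Igfbp7 -0.0065 to 0.0882, Igf1r 0.06 to 0.20, Igfbp4 -1.38 to -1.01 and Igfbp6 1.46 to 2.30. The number of IGF genes called higher was 3 with length offsets, and 3 were lower on TPM. On TPM, 16 genes of the other lists were higher and 45 lower, and 1536 and 5292 of all genes, a scale that shifted the median by -0.22, where library size only shifted it by -0.09. DESeq2 without risperidone replicate 2 called 1960 genes higher and 1966 lower. With Igfbp7 out of the sum, the share of Igfbp4 differed by -20.1 points and that of Igfbp6 by 15.6 points. Neighbours with overlapping ranges in the risperidone order numbered 0 to 1 when a risperidone library was left out, where each range is then a single value. Apart from the dropped filter, the changed sum and the removed length trend, the cause was not tested.

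The replicate numbers are not labelled as a shared batch, and same-numbered libraries had deviations correlated at -0.12. With the replicate block, 3292 genes were higher and 3321 lower, and Igfbp4 was -1.19, Igfbp6 1.83 and Igf1r 0.13 (edgeR adjusted p = 0.0865), with no IGF call changed. The crossed block, added after the data were seen, called 3474 higher and 3519 lower and 2 IGF genes higher, Igf1r at 0.13 among them (adjusted p = 0.0325). In all, 170 values stayed on their side of the threshold or near the main value. For counts of genes, near meant within a set fold of the main count, and for shares within the spread between libraries. All-gene counts of 2500 higher and 4092 lower with library size only were thus among the 170. Of the other values, 14 changed sign, 14 moved and 3 passed the threshold anew with the same sign. Of those that changed sign, 2 also passed the threshold, Igf2r and Igfbp7 in limma on TPM.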

Other observations

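The growth hormone receptor transcript differed between treatments in its implied length as well as in its level. The length implied by count over FPKM was 3030 and 3006 bases for Ghr with DMSO and 2419 and 2457 bases with risperidone, 80.8% of the DMSO mean, and Ghr is known to have a shorter transcript for a secreted binding protein. Its FPKM went from 68.0 and 69.7 to 56.8 and 58.7, a smaller step than its counts. A change in the mix of these transcripts was not tested. For the 5 IGF genes tested, the implied length with risperidone was between 97.9% (Igf1r) and 100.6% (Igfbp6) of the DMSO mean.

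The tested genes with the profiles nearest to Igfbp4 over the 4 libraries were Tyw3 (distance 0.0682), Ubxn2b (0.101) and D17H6S53E (0.105), and those nearest to Igfbp6 were Cdc42ep5 (0.110), Exoc3l (0.204) and Prr5 (0.277). Cdc42ep5 had 11 and 20 counts with DMSO and 50 and 46 with risperidone, a low level like that of Igfbp6.

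Chromosomal neighbours, chosen after their values were seen, did not all move with the IGF genes. Top2a, which encodes the topoisomerase of dividing cells and lies 15806 bases from Igfbp4, had 157 and 147 counts with DMSO and 269 and 223 with risperidone (log2 fold change 0.79, edgeR adjusted p = 0.000364), opposite to Igfbp4. Spryd3, which lies 7968 bases from Igfbp6, was higher by 0.51 (edgeR adjusted p = 1.02e-05). Igfbp1, a liver gene that lies 3540 bases from Igfbp3, had 0 counts in 3 libraries and 2 in risperidone replicate 2.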
